A study of Mus musculus with 16 samples.

Results

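Heat shock proteins, the DnaJ chaperones that work with them, heat shock factors and Bag cochaperones were followed in sorted mouse liver cells. The members are defined by gene name, as every array gene whose symbol begins with Hsp and a digit or the letters a to e, or with Hsph1, Dnaja, Dnajb, Dnajc, Hsf or Bag and a digit. The array carried 84 such genes among 28034 gene names. Of these, 83 were well above background in at least a share of 0.5 of the samples of 1 or more groups and were tested with the 23305 genes that passed the same filter. Dnajc6 was the member that did not pass. In all 14 samples, 70 members were well above background, while 13 were not.

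Cells of c129/S3 mice kept on Purina 5015 diet were sorted by flow cytometry with the antibody MIC1-1C3 (M) and with CD133 (133), the product of Prom1. The 4 groups were M+133+ cells from livers of mice given 0.1% DDC in the diet for 2 weeks (n = 4), M+133+ cells from untreated livers (n = 4), M-133- cells from DDC livers (n = 4) and M-133- cells from untreated livers (n = 2). DDC is a porphyrin-forming compound that injures the bile ducts and brings on a ductular reaction. The labels give no age or sex, and do not say whether a sample was 1 animal or a pool, so p-values measure the spread between these samples.

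Chaperones of the HSP70 and HSP90 families hold unfolded proteins and help them fold in cycles driven by ATP. DnaJ proteins bring clients to HSP70 and start its ATP cycle, Bag proteins and HSP110 help it release nucleotide, and small heat shock proteins bind unfolded clients without ATP. Heat shock factor 1 switches on the inducible members through repeated GAA units, called heat shock elements, while chaperones of the endoplasmic reticulum answer to the unfolded protein response through a separate promoter element.

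Promoter windows from RefSeq (GRCm38.p6, 250 bases before to 50 bases after the start of transcription) were at hand for 66 of the 83 members. They were searched on both strands for GAANNTTC, which is 2 opposed units of the heat shock element and reads the same on either strand. It was found in 15 of the 66 members (22.7%) and in 9.04% of all genes with a window. The list of 14 stress-inducible members held Hspa1a, Hspa1b, Hspb1, Hspb8, Hsph1, Hsp90aa1, Hspa4l, Hspa8, Dnaja1, Dnajb1, Dnajb4, Bag3, Hspd1 and Hspe1. It thus includes Hspa8, described below as constitutive, and the mitochondrial Hspd1 and Hspe1. Among the 12 of them with a window, 9 held GAANNTTC, and in Hspb8, Hsph1 and Bag3 it lay after the start of transcription. The 3-unit form, which is the same 8 letters followed after any 2 bases by GAA and so always contains the 2-unit form, was in 4 members (6.06%), against 0.662% of all genes. These matches describe the letters of the windows and show no binding.

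The stretches below belong to members whose levels are described later, and the capitals mark GAANNTTC or, in Hspd1, the run of overlapping 3-unit matches. Hspa1a and Hspa1b, the paired genes of inducible HSP70, are shown in full because 247 of their 250 upstream bases are identical (98.8%) and 3 differ. They lie on the minus strand at chr17:34972157-34972406 (Hspa1a) and chr17:34959239-34959488 (Hspa1b).
Hspa1a: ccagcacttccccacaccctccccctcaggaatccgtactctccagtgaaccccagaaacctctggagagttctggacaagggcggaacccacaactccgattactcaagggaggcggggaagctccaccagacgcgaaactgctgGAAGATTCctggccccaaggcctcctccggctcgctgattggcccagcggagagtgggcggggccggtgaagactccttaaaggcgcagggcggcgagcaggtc
Hspa1b: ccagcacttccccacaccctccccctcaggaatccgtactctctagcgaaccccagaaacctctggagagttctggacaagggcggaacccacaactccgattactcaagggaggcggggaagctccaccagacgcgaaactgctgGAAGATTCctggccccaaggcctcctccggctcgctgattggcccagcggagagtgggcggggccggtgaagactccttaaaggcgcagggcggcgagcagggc
The small heat shock protein gene Hspb1 (chr5:135887784-135887847, plus strand), the mitochondrial chaperonin gene Hspd1 (chr1:55088041-55088094, minus strand) and the type A DnaJ gene Dnaja1 (chr4:40722326-40722369, plus strand) passed the test in at least 1 comparison. Hspe1, which encodes the partner of Hspd1, starts on the opposite strand next to it, and its window holds the same matches.
Hspb1: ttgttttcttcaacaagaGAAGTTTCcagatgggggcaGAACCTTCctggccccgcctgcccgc
Hspd1: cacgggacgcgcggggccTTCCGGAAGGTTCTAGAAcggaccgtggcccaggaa
Dnaja1: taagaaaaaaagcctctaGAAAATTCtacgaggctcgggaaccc

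The endoplasmic reticulum stress element, CCAAT and CCACG with any 9 bases between them, was searched on both strands. It was in 3 of the 7 endoplasmic reticulum members with a window (42.9%) and in 0.137% of all genes. None of those 7 held GAANNTTC. The 3 genes are Hspa5 (chr2:34772007-34772061, plus strand), Hsp90b1 (chr10:86705515-86705674, minus strand) and Dnajc3 (chr14:118937809-118937863, plus strand), and capitals mark the element on either strand.
Hspa5: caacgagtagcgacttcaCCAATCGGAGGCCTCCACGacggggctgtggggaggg
Hsp90b1: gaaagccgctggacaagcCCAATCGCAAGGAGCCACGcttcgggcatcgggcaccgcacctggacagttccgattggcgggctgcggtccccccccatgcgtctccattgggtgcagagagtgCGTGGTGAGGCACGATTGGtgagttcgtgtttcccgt
Dnajc3: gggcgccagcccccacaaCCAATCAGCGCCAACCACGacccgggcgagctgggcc

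All levels below are log2 processed signals minus the 75th percentile of the same array, so 0 stands for the level of that percentile. The 75th percentile itself ran between 602.8 and 2732.2 intensity units, and between 59.7% and 77.0% of probes on an array were well above background. The dimmest arrays were that of M-133- untreated sample 1 (602.8) and the second of 2 repeat arrays of M-133- untreated sample 2 (705.9, against 2080.8 on its first array), so the untreated M-133- group rests on 2 samples of which 1 is dim and 1 varied between arrays. Prom1 was between 0.81 and 2.23 in M+133+ DDC samples and between 1.13 and 1.82 in M+133+ untreated samples. It was between -8.63 and -3.52 in M-133- DDC samples and at -8.35 and -7.74 in M-133- untreated samples. In M-133- untreated samples Prom1 was not well above background. The mean level of 8 bile duct markers, Prom1 among them, was 3.78 to 5.42 in M+133+ DDC and 3.55 to 3.89 in M+133+ untreated samples, against -2.45 to -1.19 in M-133- DDC and -4.60 to -3.48 in M-133- untreated samples, and 7 and 8 of the 8 were higher in M+133+ cells of DDC and of untreated livers.

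The M-133- samples held markers of several liver cell types. The mean of 8 hepatocyte markers was 3.79 to 4.45 in M-133- DDC and 3.54 to 4.84 in M-133- untreated samples, and 7 of the 8 were lower in M+133+ cells in each treatment. In M+133+ samples that mean was -3.26 to 1.09 with DDC, highest in sample 2, and -2.38 to -1.01 without. The mean of 6 endothelial markers was 0.59 to 3.52 in M-133- DDC samples and 4.62 to 5.21 in M-133- untreated samples, and none of the 6 passed the test for DDC. The mean of 6 stellate cell markers was 2.83 to 4.18 in M-133- DDC samples and -0.01 to 0.11 in M-133- untreated samples, and 1 of the 6, Des, passed the test for DDC. In M+133+ cells the endothelial markers lay between -3.73 and -2.11 with DDC and between -1.99 and -0.06 without, and the stellate markers between -4.91 and -0.53 with DDC and between -3.95 and -2.08 without. The test between the sorts called 5 endothelial and 6 stellate markers lower in M+133+ cells of DDC livers, and 6 and 2 in untreated livers. In such bulk samples, fewer cells of a type and less RNA per cell cannot be told apart. The part of these marker shifts in the results that follow was not tested, apart from the values given beside them.

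Of the 83 members, 10 passed the test in 1 or more of the 5 comparisons and 73 passed in none. A gene passed if its p in limma's linear model on the 14 samples, adjusted by the Benjamini-Hochberg method with all 23305 genes, was under 0.05. The comparisons share samples, and those of untreated livers and of DDC in M-133- cells both rest on the same 2 M-133- untreated samples. In untreated livers, 3 members were higher and 4 lower in M+133+ cells than in M-133- cells, which is 8.43% of members against 8.8% of all genes (3.63% higher and 5.16% lower). In DDC livers, 1 member was higher and 5 were lower, which is 7.23% of members against 12.9% of all genes (6.44% higher and 6.48% lower). No member passed for DDC in M+133+ cells, where 0.24% of all genes passed (0.146% higher and 0.0944% lower). In M-133- cells 2 members were higher with DDC (2.41%), where 1.02% of all genes passed (0.614% higher and 0.403% lower). The sort difference itself differed between DDC and untreated livers for 1 member (1.2%), against 0.257% of all genes (0.0601% higher and 0.197% lower).

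Single samples decided some of these counts. For the sort in untreated livers 4 members passed without M+133+ untreated sample 1, 3 without M-133- untreated sample 1 and 2 without M-133- untreated sample 2. For DDC in M-133- cells 1 passed without M-133- untreated sample 1 or 2 or M-133- DDC sample 3, for DDC in M+133+ cells 1 passed without M+133+ DDC sample 2 or 3, and the interaction had 0 without M+133+ untreated sample 2. Quantile normalization gave 4 higher and 1 lower for the sort in untreated livers, and normexp background correction gave 2 higher and 4 lower in DDC livers.

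The share of members that passed was close to that of all genes for the sort in untreated livers and under it in DDC livers. Their median log2 difference between M+133+ and M-133- cells was -0.20 in untreated livers, where that of all genes was -0.07, and 0.00 in DDC livers, where that of all genes was 0.31. The median DDC difference of the members was 0.20 in M+133+ cells (0.06 for all genes) and -0.27 in M-133- cells (-0.36 for all genes). Both changed sign with quantile normalization, to -0.02 in M+133+ cells (0.01 for all genes) and 0.20 in M-133- cells (0.05 for all genes). The median within-group SD was 0.88 for members and 1.14 for all genes, and the members ranged from 0.18 (Dnaja1) to 2.65 (Dnajb7). The plot of the members that passed shows every sample of the 10 genes.

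**Figure D1:**
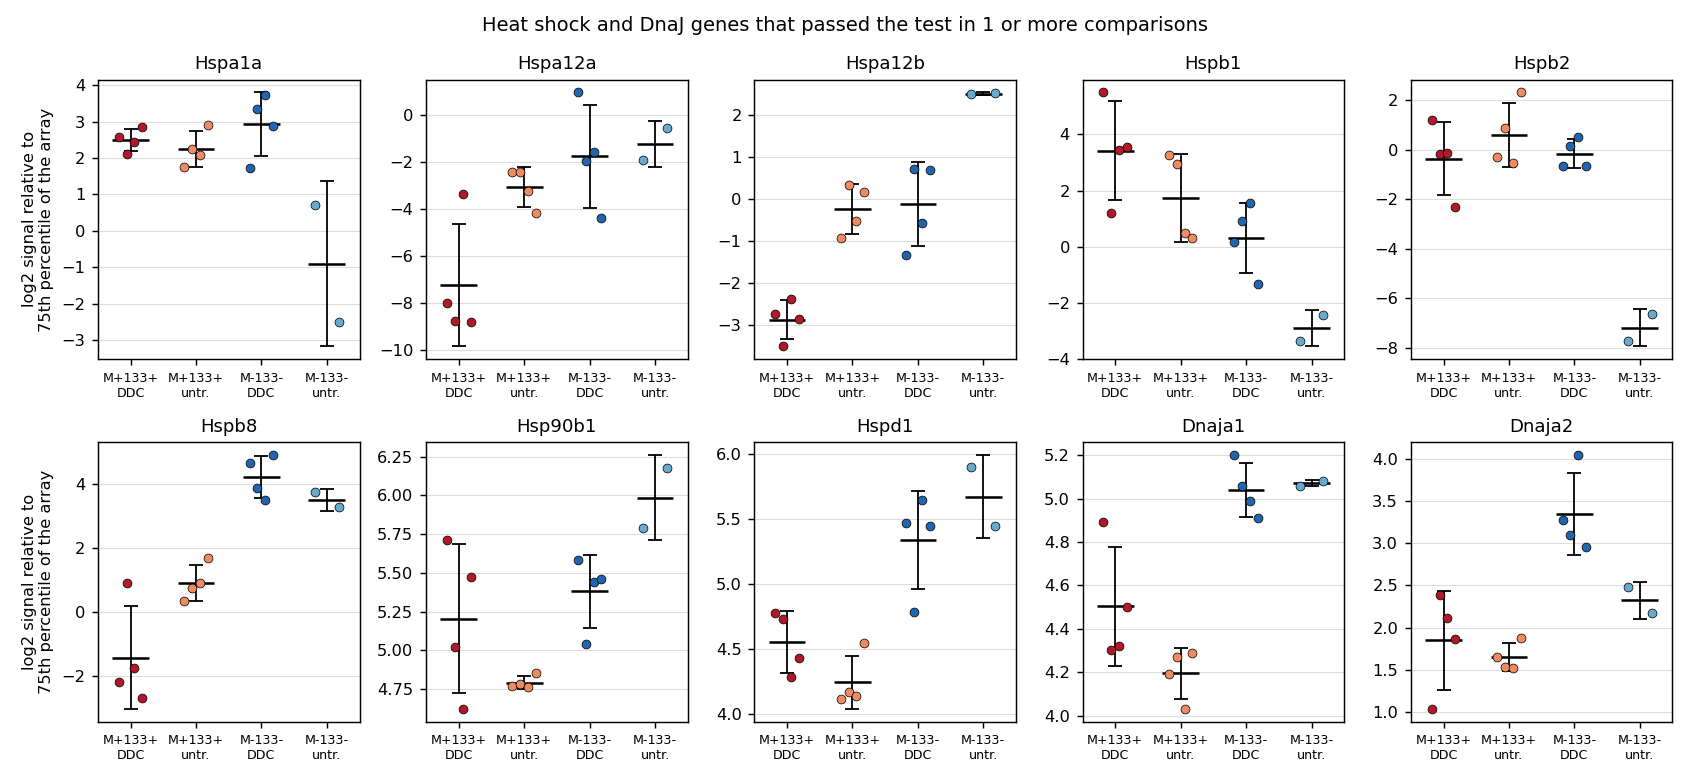
Log2 signal relative to the 75th percentile of the array (vertical axis) for the 10 members that passed the test in 1 or more comparisons, in M+133+ DDC, M+133+ untreated, M-133- DDC and M-133- untreated samples (n = 4, 4, 4 and 2). Points are samples, horizontal bars are means and error bars are SD. Hspb2 lies between -2.33 and 2.31 in the first 3 groups and at -7.72 and -6.65 in M-133- untreated samples, and Hspb8 lies between 3.27 and 4.91 in all M-133- samples.

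Among the 8 members counted by their Hspb names as small heat shock proteins, Hspb11 included, the sort separated 3 members and the rest did not pass. Hspb1, which encodes the mouse Hsp25 protein, known for holding unfolded clients and stabilizing actin filaments (probe mm9 chr5:136364927-136365114), was at 5.50, 1.19, 3.46 and 3.55 in M+133+ DDC samples and at 3.25, 2.93, 0.48 and 0.31 in M+133+ untreated samples. It was at 0.18, 0.90, 1.55 and -1.35 in M-133- DDC samples and at -3.37 and -2.45 in M-133- untreated samples. Every untreated M+133+ sample was above both untreated M-133- samples, while the lowest M+133+ DDC sample overlapped the M-133- DDC samples.

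Hspb1 was higher in M+133+ cells than in M-133- cells of untreated livers by a log2 difference of 4.65 (SE 1.14, adjusted p = 0.0185). In DDC livers it was higher in M+133+ cells by 3.11 (SE 0.93, adjusted p = 0.039). The untreated call was lost without M+133+ untreated sample 1 (adjusted p = 0.0524), M-133- untreated sample 1 (0.173) or M-133- untreated sample 2 (0.0698). The call in DDC livers was lost without any 1 of M+133+ DDC samples 1, 3 and 4 and M-133- DDC samples 1, 2 and 4, with adjusted p between 0.0501 and 0.12. With DDC, Hspb1 in M-133- cells differed by 3.23 (SE 1.14) and did not pass (adjusted p = 0.223), although all 4 M-133- DDC samples lay above the 2 untreated ones.

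Hspb8, whose protein works with Bag3 in the removal of misfolded proteins by autophagy (probe mm9 chr5:116859063-116859122), went the other way. Its levels were -2.21, 0.91, -1.75 and -2.70 in M+133+ DDC samples and 0.33, 0.74, 0.89 and 1.68 in M+133+ untreated samples. In M-133- DDC samples they were 4.65, 3.87, 3.49 and 4.91, and in M-133- untreated samples 3.74 and 3.27. All M-133- samples were above all M+133+ samples, and 3 of the 4 M+133+ DDC samples were the lowest of all.

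In DDC livers Hspb8 was lower in M+133+ cells than in M-133- cells by a log2 difference of -5.67 (SE 0.67, adjusted p = 6.12e-05), a 50.9-fold difference. This call held under each of the 26 alternative settings run for it, with values between -6.45 and -5.25. In untreated livers the difference was -2.60 (SE 0.82) and did not pass (adjusted p = 0.0675), though it did without M+133+ DDC sample 2 (adjusted p = 0.0109), which enters through the shared spread. The DDC difference in M+133+ cells was -2.35 (SE 0.67) and did not pass either (adjusted p = 0.171), though without that sample it did (-3.13, adjusted p = 0.0207). M+133+ DDC sample 2 had a hepatocyte marker mean of 1.09, against -1.43, -3.26 and -1.99 in M+133+ DDC samples 1, 3 and 4. The mean of the 6 stellate cell markers was also apart, at -4.91 to -0.53 in M+133+ DDC samples against 2.83 to 4.18 in M-133- DDC samples, and so were the means of the hepatocyte and endothelial markers. The part of these cells in the difference of Hspb8 was not tested.

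Hspb2 encodes a small heat shock protein best known from heart and skeletal muscle. Its brighter probe (mm9 chr9:50559211-50559270, minus strand) was at 1.21, -0.17, -0.15 and -2.33 in M+133+ DDC samples and at -0.29, 0.88, -0.53 and 2.31 in M+133+ untreated samples. It was at -0.67, 0.15, 0.52 and -0.65 in M-133- DDC samples and at -7.72 and -6.65 in M-133- untreated samples. The 3 groups of 4 overlapped, and the 2 untreated M-133- samples lay far below them and were not well above background.

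By this probe Hspb2 was at least 94.3-fold higher in M+133+ cells than in M-133- cells of untreated livers (adjusted p = 0.000239). It was at least 55.8-fold higher with DDC than without in M-133- cells (adjusted p = 0.00297). Both bounds set the brighter group's mean against the dimmest signal called well above background on each array of the dim group. The sort difference in DDC livers was -0.20 (SE 0.81, adjusted p = 0.916), and the fitted interaction of sort and DDC was -7.97 (SE 1.28, adjusted p = 0.0199). That value takes the M-133- untreated samples at their measured signals. With those arrays at the dimmest signal called well above background, it was -6.76. The DDC call was lost without M-133- untreated sample 1 (adjusted p = 0.0554), and the interaction without that sample (0.0884) or M+133+ untreated sample 2 (0.0505).

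The other Hspb2 probe (mm9 chr9:50559674-50559733), which was dimmer, did not show this. It was between -4.12 and -3.27 in M+133+ DDC samples and between -3.95 and -1.91 in M+133+ untreated samples. It was between -5.61 and -3.02 in M-133- DDC samples and at -4.74 and -1.79 in M-133- untreated samples, which overlapped the rest. Its log2 difference was 0.39 for the sort in untreated livers (SE 1.03, adjusted p = 0.913), -1.08 for DDC in M-133- cells (SE 1.03, adjusted p = 0.747) and 0.26 for the interaction (SE 1.33, adjusted p = 0.966), in a fit of all kept probes that also served for the other second probes below. The 2 probes of Hspb2 thus disagreed, and every Hspb2 call stands for the brighter probe alone. With the mean of both probes the sort difference in untreated livers still passed, but the DDC difference in M-133- cells (2.97, adjusted p = 0.124) and the interaction (-3.86, adjusted p = 0.216) did not. With normexp background correction the fitted sort difference was 3.85 (adjusted p = 0.0134), against 7.78 as reported, and the DDC difference (3.18, adjusted p = 0.0948) and the interaction (-4.06, adjusted p = 0.18) did not pass.

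Cryab, the small heat shock protein gene next to Hspb2 on chromosome 9, was read by 2 probes, of which the brighter one followed the sort in both treatments. By that probe it was at 6.13, 3.56, 4.09 and 3.92 in M+133+ DDC samples and at 0.01, 1.82, 2.22 and -0.23 in M-133- DDC samples. In untreated livers it was at 3.42, 3.44, 3.78 and 4.57 in M+133+ samples and at -0.30 and 0.52 in M-133- samples. Cryab was thus higher in M+133+ cells by 3.47 with DDC (SE 0.64, adjusted p = 0.00193) and by 3.69 without (SE 0.78, adjusted p = 0.00785), and its interaction was -0.22 (SE 1.01, adjusted p = 0.962). The second probe of Cryab was at -0.04, 0.56, 2.45 and -0.66 in M+133+ DDC samples and at -3.32, 0.15, 0.81 and -2.01 in M-133- DDC samples. In untreated livers it was at 1.66, 1.04, -1.02 and 1.17 in M+133+ samples and at -0.03 and -2.31 in M-133- samples. The sorts overlapped at this probe, and its differences of 1.67 in DDC livers (SE 0.98, adjusted p = 0.31) and 1.88 in untreated livers (SE 1.2, adjusted p = 0.47) did not pass.

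**Figure D2:**
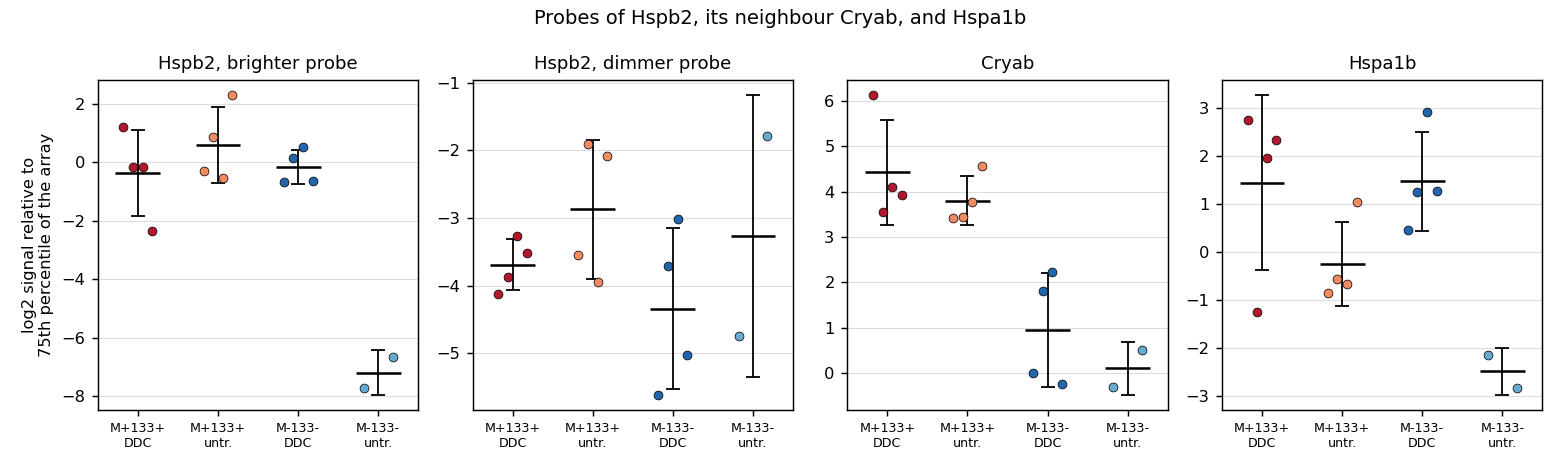
Log2 signal relative to the 75th percentile of the array (vertical axis, each panel with its own range) for both probes of Hspb2, for Cryab and for the brighter probe of Hspa1b, by group. Points are samples (n = 4, 4, 4 and 2), bars are means and error bars are SD. The M-133- untreated samples are at -7.72 and -6.65 for the brighter Hspb2 probe but at -4.74 and -1.79 for the dimmer one, where the second of these is the highest of the 14 samples.

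In the HSP70 and HSP110 family, 14 members were tested and 3 passed in some comparison. Hspa1a, an inducible HSP70 (probe mm9 chr17:35106766-35106825), was at 2.58, 2.11, 2.45 and 2.86 in M+133+ DDC samples and at 1.76, 2.26, 2.08 and 2.91 in M+133+ untreated samples. It was at 1.72, 3.36, 3.75 and 2.88 in M-133- DDC samples and at 0.71 and -2.51 in M-133- untreated samples. The 2 untreated M-133- samples were the lowest of the 14 and were far apart from each other.

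Hspa1a was higher in M+133+ cells than in M-133- cells of untreated livers by 3.15 (SE 0.75, adjusted p = 0.0165), an 8.9-fold difference. In M-133- cells it was higher with DDC than without by 3.83 (SE 0.75, adjusted p = 0.0253), a 14.2-fold difference. Without M-133- untreated sample 2 the sort difference was 1.54 (adjusted p = 0.307) and the DDC difference 2.22 (adjusted p = 0.208), so that both calls rest on that sample. The DDC call was also lost without M-133- DDC sample 3 (adjusted p = 0.0535). On that untreated sample's 2 repeat arrays, Hspa1a was at -3.17 and -1.86. The interaction was -3.58 (SE 0.97) and did not pass (adjusted p = 0.184), though it did without M-133- untreated sample 1 (-5.20, adjusted p = 0.0287). A second Hspa1a probe, which overlaps the one used, gave 3.04 for the sort in untreated livers (adjusted p = 0.0369) and 3.99 for DDC in M-133- cells (adjusted p = 0.037).

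Hspa1b, its near-identical neighbour, was at 2.76, -1.26, 1.95 and 2.33 in M+133+ DDC samples and at -0.85, -0.56, -0.68 and 1.04 in M+133+ untreated samples. It was at 0.46, 1.24, 2.91 and 1.27 in M-133- DDC samples and at -2.15 and -2.84 in M-133- untreated samples, again the lowest. Its DDC difference in M-133- cells was 3.97 (SE 1.02, adjusted p = 0.0863) and its sort difference in untreated livers 2.23 (SE 1.02, adjusted p = 0.24), and neither passed. The DDC difference passed without M+133+ DDC sample 2 (adjusted p = 0.0251). Its dimmer probe gave 2.60 for DDC in M-133- cells (adjusted p = 0.231) and -0.15 for the sort in untreated livers (adjusted p = 0.967). Since the paralogs share sequence, which of them a probe reads is uncertain.

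Hspa12a and Hspa12b encode distant HSP70 relatives, and HSPA12B is known from endothelial cells. Hspa12b (probe mm9 chr2:130971553-130971612) was at -2.74, -3.52, -2.39 and -2.87 in M+133+ DDC samples and at -0.94, 0.32, -0.53 and 0.17 in M+133+ untreated samples. It was at -1.34, 0.72, -0.57 and 0.68 in M-133- DDC samples and at 2.49 and 2.53 in M-133- untreated samples. M+133+ DDC samples were the lowest, M-133- untreated samples the highest, and the other groups lay between and overlapped.

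Hspa12b was lower in M+133+ cells than in M-133- cells by -2.76 in DDC livers (SE 0.60, adjusted p = 0.0059) and by -2.75 in untreated livers (SE 0.73, adjusted p = 0.0286). The first of these calls held under each of the 26 alternative settings run for it. The second was lost without M+133+ untreated sample 1 (adjusted p = 0.0783) or 3 (0.0653), or M-133- untreated sample 1 (0.169) or 2 (0.151). DDC differences were -2.64 in M+133+ cells (SE 0.60, adjusted p = 0.0832) and -2.63 in M-133- cells (SE 0.73, adjusted p = 0.116), and neither passed although no sample overlapped in either sort. The mean of the 6 endothelial markers had the same order of groups, being lowest in M+133+ DDC and highest in M-133- untreated samples.

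Hspa12a (probe mm9 chr19:58870521-58870580) was at -8.01, -8.79, -3.38 and -8.82 in M+133+ DDC samples, of which 1 was well above background, and at -2.42, -2.45, -3.24 and -4.19 in M+133+ untreated samples. It was at 0.95, -1.97, -1.60 and -4.41 in M-133- DDC samples and at -1.93 and -0.56 in M-133- untreated samples. Apart from sample 3, the M+133+ DDC samples were far below the rest. In DDC livers Hspa12a was lower in M+133+ cells than in M-133- cells by a fitted difference of -5.49 (SE 1.24, adjusted p = 0.00777), whose size rests in part on the signals of the 3 samples not well above background. A second probe of the gene gave a fitted -6.64 in DDC livers (adjusted p = 0.00108) and -6.36 in untreated livers (adjusted p = 0.00946), where the probe used gave -1.83 (adjusted p = 0.611). The second probe was between -8.98 and -6.08 in M+133+ DDC samples and between -9.08 and -4.30 in M+133+ untreated samples. The dimmest signal called well above background lay between -7.07 and -5.84 on the M+133+ arrays, so these sizes too rest in part on signals near or below it. With normexp background correction the probe used gave -2.57 in DDC livers (adjusted p = 0.0578). The third probe that was kept, out of 4 on the array, gave -1.0 in DDC livers (adjusted p = 0.725). It was also dim, between -8.82 and -4.25 in M+133+ DDC samples and between -8.67 and -1.55 in M-133- DDC samples.

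The housekeeping members of the HSP70 family and HSP110 did not pass. Hspa8, the constitutive cytosolic HSP70, averaged 5.38 ± 0.84 in M+133+ DDC, 4.86 ± 0.15 in M+133+ untreated and 5.39 ± 0.32 in M-133- DDC samples (SD, n = 4 each), and 5.78 ± 0.43 in M-133- untreated samples (n = 2). Hspa9, the mitochondrial HSP70, averaged 2.92 ± 0.27, 2.90 ± 0.47 and 3.72 ± 0.39 in the same groups of 4, and 3.10 ± 0.73 in M-133- untreated samples. Hsph1, an HSP110 that exchanges nucleotide for HSP70, averaged 2.26 ± 1.07, 2.35 ± 0.20 and 2.32 ± 0.35, and 1.96 ± 0.23 in M-133- untreated samples. None of these 3 passed in any comparison, and the smallest adjusted p among them was 0.16, for the sort difference of Hspa9 in DDC livers (-0.80, SE 0.35). Hspa8 did pass for the sort in untreated livers without M+133+ DDC sample 1 (-0.92, adjusted p = 0.0463), with the second repeat array alone (-1.56, adjusted p = 0.0198) and with 2 groups in the fit (adjusted p = 0.0284). Across the family, the smallest adjusted p that did not pass in a sort comparison was that of Hspa13 in DDC livers (1.73, adjusted p = 0.0578), which passed without the intensity trend (0.0407) and with slide as a random block (0.0365).

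**Figure D3:**
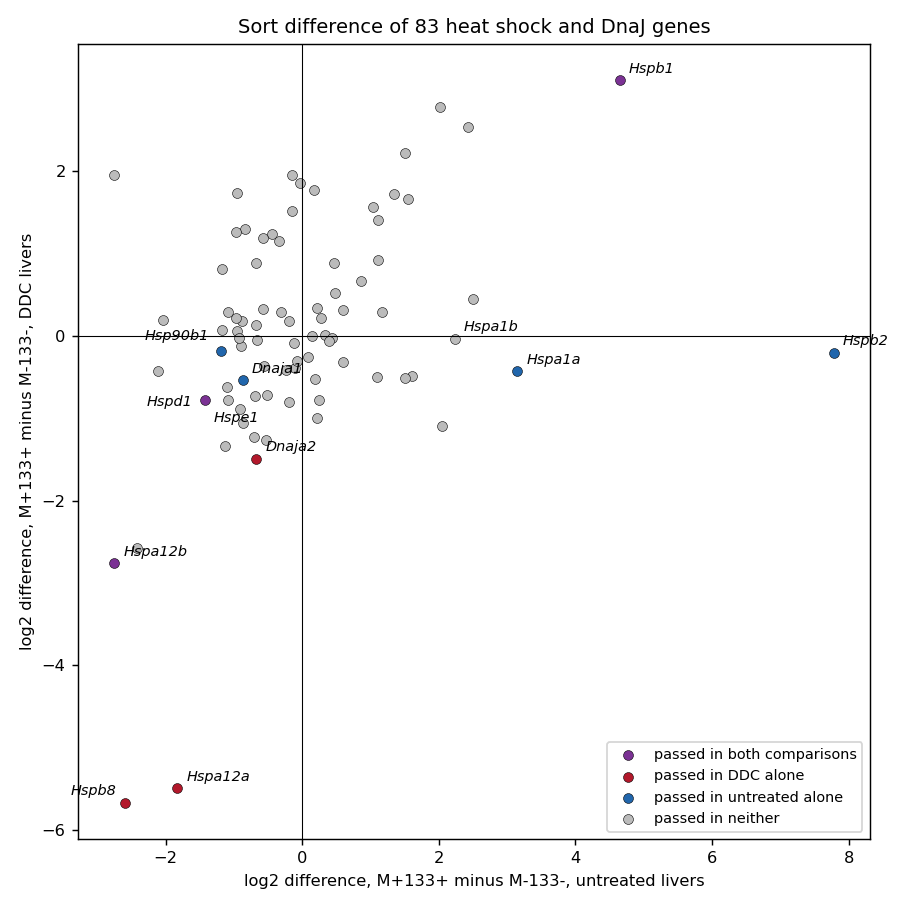
Log2 difference of M+133+ minus M-133- cells in untreated livers (horizontal axis) and in DDC livers (vertical axis) for the 83 members, 1 point each, coloured by the comparisons in which the gene passed the test. Hspb1 is at 4.65 and 3.11 and Hspb8 at -2.60 and -5.67, while Hspb2 lies at 7.78, a fitted value against samples below background, and at -0.20.

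Of the 2 subunits of the mitochondrial chaperonin, Hspd1 passed in both sort comparisons. Hspd1, the HSP60 ring subunit (probe mm9 chr1:55134829-55134888), was at 4.78, 4.73, 4.29 and 4.43 in M+133+ DDC samples and at 5.47, 4.79, 5.65 and 5.45 in M-133- DDC samples. In untreated livers it was at 4.12, 4.17, 4.14 and 4.55 in M+133+ samples and at 5.90 and 5.45 in M-133- samples. No M+133+ sample reached the lowest M-133- sample of its treatment.

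Hspd1 was lower in M+133+ cells than in M-133- cells by -0.78 in DDC livers (SE 0.23, adjusted p = 0.0363) and by -1.43 in untreated livers (SE 0.28, adjusted p = 0.00512). Its second probe gave -0.97 in DDC livers (adjusted p = 0.0775) and -1.69 in untreated livers (adjusted p = 0.0203). With quantile normalization the difference was -0.54 in DDC livers (adjusted p = 0.194) and -0.26 in untreated livers (adjusted p = 0.715). The untreated call was lost without M-133- untreated sample 1 (adjusted p = 0.0962). The call in DDC livers was lost without any 1 of M+133+ untreated samples 1 to 3, M+133+ DDC samples 3 and 4 and M-133- DDC samples 1, 3 and 4, with adjusted p between 0.052 and 0.0981.

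Hspe1, the HSP10 lid of the same chaperonin, was at 4.26, 3.69, 3.26 and 3.48 in M+133+ DDC samples and at 4.74, 4.38, 3.90 and 4.81 in M-133- DDC samples. Untreated livers gave 3.05, 3.11, 3.15 and 3.54 in M+133+ samples and 4.64 and 3.98 in M-133- samples. The sorts overlapped with DDC and did not overlap without it. Its sort difference was -0.78 in DDC livers (SE 0.30, adjusted p = 0.108) and -1.09 in untreated livers (SE 0.37, adjusted p = 0.0878), and neither passed. Both passed without M+133+ DDC sample 1, with adjusted p = 0.0394 and 0.0478.

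Of the 3 HSP90 genes, Hsp90b1 passed in 1 comparison. Hsp90b1, the HSP90 of the endoplasmic reticulum (probe mm9 chr10:86153770-86153829), was at 5.71, 5.02, 4.62 and 5.47 in M+133+ DDC samples and at 5.58, 5.04, 5.44 and 5.46 in M-133- DDC samples, which overlapped. In untreated livers it was at 4.77, 4.78, 4.76 and 4.85 in M+133+ samples and at 5.79 and 6.18 in M-133- samples, which did not. It was lower in M+133+ cells than in M-133- cells of untreated livers by -1.19 (SE 0.28, adjusted p = 0.0154). With quantile normalization the difference was -0.06 (adjusted p = 0.941), and the call was also lost without M-133- untreated sample 1 (adjusted p = 0.0549) or 2 (0.161).

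The cytosolic pair did not pass. Hsp90aa1, the inducible form, averaged 4.06 ± 0.29 in M+133+ DDC, 4.24 ± 0.15 in M+133+ untreated and 4.37 ± 0.22 in M-133- DDC samples (SD, n = 4 each), and was at 4.36 and 2.92 in M-133- untreated samples. Hsp90ab1, the constitutive form, averaged 5.95 ± 0.57, 5.51 ± 0.17 and 6.00 ± 0.39 in the same groups of 4, and was at 6.24 and 6.08 in M-133- untreated samples. Their smallest adjusted p over the 5 comparisons was 0.277, for the sort difference of Hsp90ab1 in untreated livers (-0.66, SE 0.32).

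Among the DnaJ proteins, 2 of 4 type A members passed and none of the 13 type B or 27 type C members did in limma's test. An unadjusted p under 0.05 was reached by 1 type B and 7 type C members for the sort in DDC livers, and by 1 of each type in untreated livers, where 25.8% and 19.5% of all genes reached it. Dnaja1, a farnesylated cytosolic partner of HSP70 (probe mm9 chr4:40677306-40678761), was at 4.89, 4.30, 4.32 and 4.50 in M+133+ DDC samples and at 5.20, 5.06, 4.99 and 4.91 in M-133- DDC samples. In untreated livers it was at 4.19, 4.27, 4.03 and 4.29 in M+133+ samples and at 5.06 and 5.08 in M-133- samples. The ranges did not overlap in either treatment, and the spread was small throughout.

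Dnaja1 was lower in M+133+ cells than in M-133- cells of untreated livers by -0.87 (SE 0.24, adjusted p = 0.0357), but this turned to 0.15 with quantile normalization (adjusted p = 0.848). It was lost without any 1 of the 6 untreated samples, with adjusted p between 0.0619 and 0.173. In DDC livers the difference was -0.54 (SE 0.20, adjusted p = 0.0918), and it passed without M+133+ DDC sample 1 (-0.67, adjusted p = 0.0204). On the 2 repeat arrays of M-133- untreated sample 2, Dnaja1 was at 4.25 and 5.90, Hspd1 at 4.65 and 6.26 and Hsp90b1 at 5.24 and 7.13. The first array of that sample thus put Dnaja1 within the range of the untreated M+133+ samples. The calls of Dnaja1, Hspd1 and Hsp90b1 for the sort in untreated livers were all lost with the first repeat array alone. They were also all lost without the intensity trend.

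Bright genes in general were lower in M+133+ cells by the median. Over the 641 genes with a mean level above 4, the median sort difference was -0.59 in untreated livers, against -0.04 for the other 22664 genes. In DDC livers the medians were -0.21 and 0.34. The part of this shift in the differences of Dnaja1, Hspd1 and Hsp90b1 in untreated livers (-0.87, -1.43 and -1.19) was not tested.

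Dnaja2, a second cytosolic type A partner of HSP70 (probe mm9 chr8:88062888-88062947), was at 1.04, 2.39, 2.11 and 1.87 in M+133+ DDC samples and at 3.27, 3.10, 4.04 and 2.95 in M-133- DDC samples. Untreated livers gave 1.66, 1.54, 1.53 and 1.88 in M+133+ samples and 2.48 and 2.17 in M-133- samples. The sorts did not overlap in either treatment. In DDC livers Dnaja2 was lower in M+133+ cells than in M-133- cells by -1.49 (SE 0.38, adjusted p = 0.017), and this call was lost with quantile normalization (-1.17, adjusted p = 0.0721) and without M-133- DDC sample 3 (adjusted p = 0.0503). In untreated livers the difference was -0.67 (SE 0.47, adjusted p = 0.517).

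Dnajb1, the type B partner of HSP70 that rises in the classical heat shock response, was high and even. It averaged 5.18 ± 0.22 in M+133+ DDC, 5.42 ± 0.32 in M+133+ untreated and 5.56 ± 0.39 in M-133- DDC samples (SD, n = 4 each), and was at 6.12 and 4.95 in M-133- untreated samples. Its differences lay between -0.39 and 0.03 in the 4 pairwise comparisons, with adjusted p of 0.408 or more. The uncalled type B members ranged between -2.75 (Dnajb7) and 1.51 (Dnajb3) for the sort in untreated livers, and between -1.06 (Dnajb2) and 2.22 (Dnajb3) in DDC livers. The type C members ranged between -2.42 (Dnajc12) and 2.04 (Dnajc15) in untreated livers and between -2.57 (Dnajc12) and 2.78 (Dnajc25) in DDC livers.

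The endoplasmic reticulum members other than Hsp90b1 did not pass. Hspa5, the HSP70 of that compartment known as BiP, was at 6.48, 4.77, 4.59 and 5.37 in M+133+ DDC samples and at 5.29, 4.68, 6.19 and 4.78 in M-133- DDC samples. Untreated livers gave 5.19, 4.66, 4.25 and 4.37 in M+133+ samples and 5.13 and 6.46 in M-133- samples. Its sort difference was 0.07 in DDC livers (SE 0.44, adjusted p = 0.948) and -1.18 in untreated livers (SE 0.54, adjusted p = 0.239).

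Dnajb9, a partner of BiP that represses the sensor IRE1, was at 5.00, 0.95, 2.12 and 2.30 in M+133+ DDC samples and at -0.02, 0.20, 2.86 and 0.35 in M-133- DDC samples. Untreated livers gave 2.38, 1.38, 1.51 and 1.62 in M+133+ samples and 2.19 and 3.17 in M-133- samples. M+133+ DDC sample 1 was the highest for Dnajb9 and, with 6.48 against 6.46 in M-133- untreated sample 2, for Hspa5. The sort difference of Dnajb9 was 1.74 in DDC livers (SE 0.79, adjusted p = 0.177, and 0.0473 without M-133- DDC sample 3) and -0.95 in untreated livers (SE 0.96, adjusted p = 0.701), and the interaction of 2.69 did not pass (SE 1.24, adjusted p = 0.489).

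Dnajb11, another partner of BiP, averaged 3.89 ± 0.43 in M+133+ DDC, 3.48 ± 0.29 in M+133+ untreated and 3.68 ± 0.72 in M-133- DDC samples (SD, n = 4 each), and 4.45 ± 0.31 in M-133- untreated samples (n = 2). Dnajc3, which restrains the kinase PERK, averaged 2.99 ± 0.86, 2.46 ± 0.39 and 4.22 ± 1.2 in the same groups of 4 and 3.16 ± 0.66 in M-133- untreated samples. The smallest adjusted p of the 2 genes over the sort comparisons was 0.179, for Dnajc3 in DDC livers (-1.23, SE 0.56). The mean level of the 8 endoplasmic reticulum members was 3.97 in M+133+ DDC sample 1, and between 2.48 and 3.55 in the other 13 samples. That sample's array was the dimmest of the M+133+ arrays (75th percentile 930.9). The mean of 14 subunits of the chaperones TRiC and prefoldin was also highest there, at 3.56, as was that of the bile duct markers, at 5.42. The mean of 15 other cochaperones of HSP70 and HSP90 was not (2.49, against 2.64 in M-133- untreated sample 2). The part of array brightness in these values was not tested.

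The unfolded protein response beyond the members was read from 20 other genes. In DDC livers 1 of them was higher in M+133+ cells, Eif2ak3, which encodes PERK (3.91, SE 0.66, adjusted p = 0.00101), and none was lower. In untreated livers none was higher and 2 were lower in M+133+ cells: Sdf2l1, part of the BiP chaperone complex (-2.56, adjusted p = 0.00901), and P4hb, a protein disulfide isomerase (-1.45, adjusted p = 0.0456). None of the 20 passed limma's test for DDC in either sort, where 6 had an unadjusted p under 0.05 in M+133+ cells and 3 in M-133- cells, against 12.5% and 12.8% of all genes. None of 15 other cochaperones of HSP70 and HSP90, and none of 14 subunits of TRiC and prefoldin, the chaperones of actin and tubulin, passed in any of the 5 comparisons. For DDC in M+133+ cells, 4 of the cochaperones and 5 of the subunits had an unadjusted p under 0.05, against the same 12.5% of all genes.

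Among 6 other stress chaperones, Cryab and Clu were higher in M+133+ cells in both treatments. Clu, a secreted chaperone, was higher by 1.02 in DDC livers (SE 0.30, adjusted p = 0.0362) and by 3.03 in untreated livers (SE 0.37, adjusted p = 0.000168), and it was higher with DDC in M-133- cells by 2.37 (SE 0.37, adjusted p = 0.00643). Serpinh1, the collagen chaperone, was lower in M+133+ cells of DDC livers by -2.08 (SE 0.31, adjusted p = 0.000463). Hmox1, the inducible heme oxygenase, was lower in M+133+ cells of untreated livers by -2.93 (SE 0.84, adjusted p = 0.0411).

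The heat shock factors were dim or even, and so was Hsf2bp, which encodes a protein that binds HSF2 and is counted with them by name. None of these 5 genes passed limma's test or had an unadjusted p under 0.05 in any comparison. Hsf1, the main activator of the response, averaged 0.62 ± 0.74 in M+133+ DDC, 0.51 ± 0.33 in M+133+ untreated and 0.33 ± 0.65 in M-133- DDC samples (SD, n = 4 each), and 0.82 ± 0.53 in M-133- untreated samples (n = 2). Hsf2 varied more, between -4.12 and -0.07 in M+133+ DDC, between -2.80 and 0.07 in M+133+ untreated and between -4.41 and 1.75 in M-133- DDC samples, and it was at -4.01 and -0.11 in M-133- untreated samples. The smallest adjusted p of the 5 genes over all comparisons was 0.425.

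Bag3, which links HSP70 to Hspb8 and to autophagy, averaged 4.23 ± 0.36 in M+133+ DDC, 4.17 ± 0.27 in M+133+ untreated and 3.71 ± 0.37 in M-133- DDC samples (SD, n = 4 each), and 3.69 ± 0.40 in M-133- untreated samples (n = 2). Its sort difference was 0.52 in DDC livers (SE 0.28, adjusted p = 0.272) and 0.48 in untreated livers (SE 0.35, adjusted p = 0.536). Bag3 did not pass where its partner Hspb8 did, and the difference between the 2 genes was not tested. Bag2, which inhibits the ligase CHIP, came nearest to the threshold among the 7 cochaperones named here, at 2.54 in DDC livers (SE 0.82, adjusted p = 0.0554) and 2.43 in untreated livers (SE 1.00, adjusted p = 0.183). In DDC livers it passed with normexp background correction (2.23, adjusted p = 0.0423), with slide as a random block (0.0349), and without M+133+ DDC sample 1 (3.19, adjusted p = 0.0171) or M-133- DDC sample 4 (2.87, adjusted p = 0.0495). Bag2 has 1 probe, so its 2.54 did not change in the fit with probes averaged per gene, where its adjusted p was 0.0428. In untreated livers it passed with 2 groups in the fit (adjusted p = 0.0317).

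**Figure D4:**
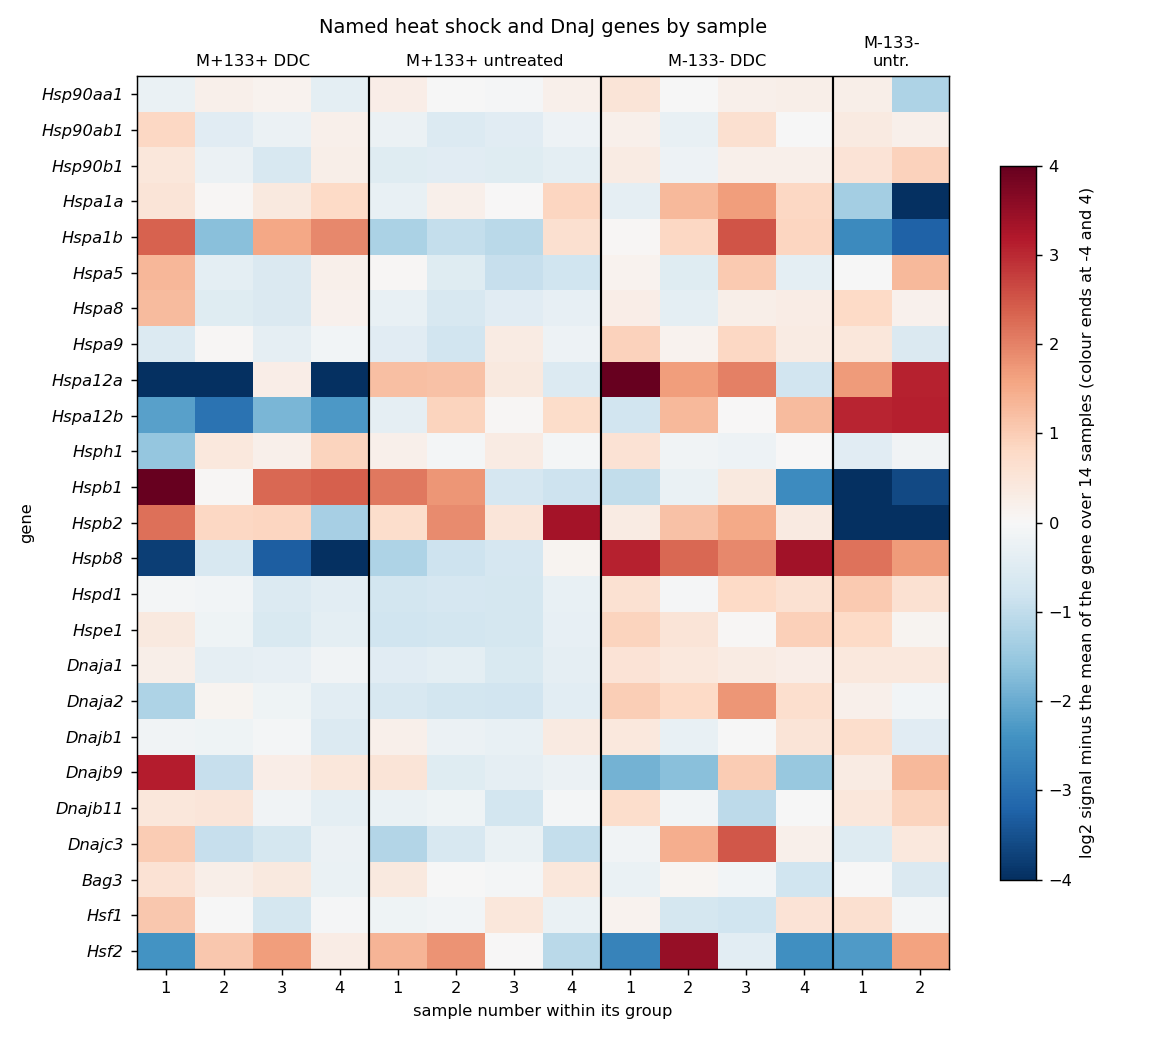
Log2 signal of 25 named members (rows) in the 14 samples (columns, by group), each gene centred on its own mean over the samples, with colour ending at -4 and 4. Hspb8 is above its mean in the 6 M-133- samples and Hspa12b is below it in the 4 M+133+ DDC samples, while Bag3, Dnajb1 and Hsp90aa1 stay near their means.

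For DDC in M+133+ cells none of the members passed limma's test, and 5 of 83 had an unadjusted p under 0.05, as did 2907 of all 23305 genes. The smallest adjusted p was that of Hspa12b (0.0832). In simulated data for this comparison, with changed genes drawn from all genes, the test recovered 12% of those changed 4-fold and 51% of those changed 16-fold. In M-133- cells 16 members had an unadjusted p under 0.05, as did 2993 of all genes, and the 2 that passed were Hspb2 and Hspa1a, described above. In simulated data for that comparison it recovered 1% of genes changed 4-fold and 34% of genes changed 16-fold.

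The 14 members listed above as stress-inducible, the constitutive Hspa8 among them, had a mean level of 3.49, 2.86, 3.03 and 2.94 in M+133+ DDC samples and 2.88, 2.85, 2.67 and 2.91 in M+133+ untreated samples. In M-133- DDC samples it was 3.54, 3.18, 3.64 and 3.32, and in M-133- untreated samples it was 2.77 and 2.05. The M-133- groups did not overlap, while the M+133+ groups did. The list's median DDC difference was 0.54 in M-133- cells, where that of all genes was -0.36, and 0.28 in M+133+ cells, where that of all genes was 0.06. Over the 641 genes with a mean level above 4, the median DDC difference was 0 in M-133- cells and 0.36 in M+133+ cells. The part of brightness in the list's medians was not tested.

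Immediate early genes are known to rise when tissue is digested and sorted, and 20 of them were read beside the members. Their mean level was between 3.69 and 4.68 in M+133+ DDC, between 3.82 and 4.36 in M+133+ untreated, between 3.66 and 4.25 in M-133- DDC and at 3.61 and 3.95 in M-133- untreated samples, so that all groups overlapped. Egr2, like Hspa1a and Hspb2, was lowest in M-133- untreated samples. It was at 4.74, 4.50, 4.60 and 4.62 in M-133- DDC samples and at 3.15 and 1.31 in M-133- untreated samples (2.39, SE 0.41, adjusted p = 0.0122), and its interaction was -3.09 (SE 0.53, adjusted p = 0.0325). Other members of that list that passed were Klf6, higher (1.80, adjusted p = 0.00521), and Klf2, lower (-2.92, adjusted p = 0.00634), in M+133+ cells of untreated livers, besides Egr2 (2.50, adjusted p = 0.00152). In DDC livers Atf3 was higher (1.31, adjusted p = 0.0237) and Klf2 lower (-1.78, adjusted p = 0.0248) in M+133+ cells. The part of sample handling in the member results was not tested.

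The arrays lay on 5 slides, and some slides held arrays of both groups of a comparison. For the sort in untreated livers, slides 2 and 4 each held 1 array of each sort, with M-133- untreated sample 2 on both. Within these slides Hspb2, not well above background on the M-133- arrays, was at least 156-fold and at least 252-fold higher in M+133+ cells. The other differences were 5.36 and 2.39 for Hspb1, 4.50 and 4.76 for Hspa1a, -3.83 and -2.82 for Hspa12b, -0.71 and -1.71 for Hspd1, -0.59 and -2.27 for Hsp90b1, and -0.16 and -1.61 for Dnaja1. All 7 kept their direction, and the last 3 were smaller on the slide with that sample's brighter array. With slide as a term in the fit, Hspb1, Hspa1a, Hsp90b1 and Dnaja1 no longer passed for this comparison, while Hspb2, Hspa12b and Hspd1 did.

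For DDC in M-133- cells, slides 1 and 2 held both groups. Within them Hspb2 was at least 29.0-fold and at least 178-fold higher with DDC, and the differences of Hspa1a were 1.01 and 6.73, in the direction of the pooled values. The DDC call of Hspa1a was lost with slide as a term in the fit. No slide held both sorts of DDC livers, so a fit with slide as a term compares them only through the untreated arrays on those slides. With slide as a term in the fit, the sort difference in DDC livers was -5.76 for Hspb8 (adjusted p = 0.00713) and -3.61 for Hspa12b (adjusted p = 0.0296), and it did not pass for Hspb1 (3.55, adjusted p = 0.242), Hspd1 (-1.44, adjusted p = 0.0857), Dnaja2 (-1.45, adjusted p = 0.201) or Hspa12a (-3.97, adjusted p = 0.354).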

How the data were processed

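Cy3-labelled cDNA, amplified from the RNA of sorted cells, was read on 1-colour Agilent mouse arrays, per the labels. In the deposited files each spot has a processed signal, a raw mean and a local background, all intensity values, written by Agilent Feature Extraction 10.5.1.1 per the file headers and not normalized between arrays. Per the submitters' processing notes limma was used. The authors' deposited table of fold changes was not used here. Probe coordinates in the files are on mm9. Promoters and current names come from RefSeq GRCm38.p6, and the builds were not mixed.

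Outlier spots were left out, and from each log2 signal the array's 75th percentile was subtracted. Repeat spots and then the repeat arrays of 2 samples were averaged (16 arrays, 14 samples). Probes passed if well above background in 0.5 or more of the samples of any group (34585 of 41174, and 148 of 155 member probes), and each gene took its brightest such probe. Names came by accession (26690 probes), symbol (5189), synonym (952) or as in the file (8343). Passing this filter only in a group where a member is high favours a difference, so counts were also taken on all 84 members. They were 3 higher and 3 lower for the sort in untreated livers, and 1 and 4 in DDC livers. For DDC they were 2 and 0 within M-133- and 0 and 0 within M+133+, and for the interaction 0 and 1.

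The fit used limma 3.58.1 under R 4.3.3 (4 group means, intensity trend, two-sided). A difference is the first-named group minus the other, and the interaction is the sort difference with DDC minus that without. The number of arrays limits the precision: of 100 genes changed 16-fold in simulated data, 33% were recovered for the sort in untreated livers, 56% in DDC livers, 51% for DDC within M+133+, 34% within M-133- and 17% for the interaction, and of 100 changed 4-fold 8%, 12%, 12%, 1% and 4%. The changed genes were drawn from all 23305 genes, not from the members. They were far fewer than the 8.8% and 12.9% of genes that passed for the sort in the data, which makes the adjusted threshold stricter there. These shares are thus not the power for the members.

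Members and gene lists were chosen with earlier results of these data known. Core members and each member that passed are given with values, other members by range, and genes at the ends of ranges or nearest to the threshold were picked with their values in view. Alternatives covered normalization, background correction, probe filter, probe choice, variance trend, slide and replicate blocks, single repeat arrays, samples left out and fits on 2 groups.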

Additional observations from a re-analysis of the deposited data

Results flagged for a closer look

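Within the groups of 4, the lowest or highest sample of a described member stood apart from the others in 6 of 75 cases, where chance alone marks about 1 in 20. Dnajb1 was at 4.86 in M+133+ DDC sample 4, against 5.25 to 5.33 in the others. Dnajb9 was at 2.86 in M-133- DDC sample 3, against -0.02 to 0.35. Hspa12a was at -3.38 in M+133+ DDC sample 3, against -8.82 to -8.01. Hspa8 was at 4.91 in M-133- DDC sample 2, against 5.53 to 5.58. M+133+ untreated sample 4 stood apart for Hspa1b (1.04, against -0.85 to -0.56) and for Hspd1 (4.55, against 4.12 to 4.17).

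The sort difference of Hspb2 differed between DDC and untreated livers by a fitted -7.97 (adjusted p = 0.0199, limma). The M-133- untreated samples were not well above background at this probe, and with those arrays at the dimmest signal called well above background the value was -6.76, while the second probe of the gene gave 0.26.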

How the results depend on the processing

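In untreated livers the sort comparison called 7 members. The count was 4 without the intensity trend, 3 with slide as a fixed block, 4 with the first repeat array alone, 13 with the 2 groups alone in the fit, and 2 to 9 with 1 sample left out. In DDC livers it called 6, against 2 with slide as a fixed block, 3 with 2 groups in the fit, and 4 to 8 with 1 sample left out. For DDC in M+133+ cells 0 were called, against 1 with slide as a random block and 0 to 1 with 1 sample left out. For DDC in M-133- cells 2 were called, against 1 with normexp background correction, 1 with probes averaged per gene, 1 with slide as a fixed block, 1 with 2 groups in the fit, and 1 to 3 with 1 sample left out. The interaction had 1, against 0 with normexp, averaged probes or slide as a fixed block, and 0 to 1 with 1 sample left out. Quantile normalization gave 4 higher and 1 lower for the sort in untreated livers, against 3 and 4 as reported, and turned Dnaja1 to 0.15 (adjusted p = 0.848). It moved the median of all genes to 0.03, -0.02, 0.01, 0.05 and -0.03 in the order of these comparisons, and normexp moved it to -0.52, 0.25, 0.09, -0.76 and 0.76. The median of the members, in the same order, was -0.06, 0, -0.02, 0.20 and -0.26 with quantile normalization. With normexp it was -0.34, 0.10, 0.13, -0.27 and 0.32.

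The labels do not say whether same-numbered samples came from the same animals, so pairing is not known. Same-numbered samples, as deviations from group means, correlated between -0.06 and 0.08 by the labels' numbers and between -0.01 and 0.11 by the titles' numbers. Correlations over all genes cannot show whether samples shared an animal. With the labels' number as a replicate block the calls were 4 for the sort in untreated livers, 0 for the interaction and 1 for DDC in M-133- cells. With the titles' number as a replicate block they were 3 for the sort in untreated livers, 0 for the interaction and 5 for the sort in DDC livers (3 higher and 2 lower, against 1 and 5), where Dnaja2 (adjusted p = 0.0931), Hspa12a (0.0613) and Hspd1 (0.0632) no longer passed and Bag2 (0.0342) and Dnajb9 (0.0367) did, and this block could not be fitted for DDC within a sort. Calls that held in every setting run were Hspb2 for the sort in untreated livers and Hspa12b and Hspb8 for the sort in DDC livers. What depth limits is signal: the untreated M-133- samples were 2, with 2 of their 3 arrays the dimmest.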
